A study of Homo sapiens with 36 samples.

Results

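The comparison set 5 lines of the activated B-cell (ABC) class of diffuse large B-cell lymphoma against 16 lines of its germinal centre B-cell (GCB) class, over 2549 genes of a targeted panel. These 21 lines are part of the 36 lymphoma lines in the series, chosen by the name of the line, and each gave 1 targeted RNA-Seq library. The ABC lines were HBL1, RIVA, SUDHL2, TMD8 and U2932. The GCB lines were DB, DOHH2, FARAGE, KARPAS422, OCILY1, OCILY7, OCILY8, OCILY18, OCILY19, RCK8, SUDHL4, SUDHL6, SUDHL10, SUDHL16, TOLEDO and WSU_DLCL2. All are established human B-cell lines grown from patients' lymphomas, and the labels state no treatment, genotype or class for any of them. The class of each line is the one it is published under, although sources differ on RCK8 and FARAGE, which were also left out as an alternative (25 calls). Such classes rest in part on expression, so the genes that define them serve here as a check of the labels. The replicate is the line, so a p-value measures the spread between single libraries of different lines, and nothing measures the spread between cultures of the same line.

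Diffuse large B-cell lymphoma is divided by the stage of B-cell life that its expression resembles. The GCB class keeps genes of the germinal centre, where B cells divide fast and mutate their antibody genes under the repressor BCL6, and carries CD10 (encoded by MME) on its surface. The ABC class resembles B cells leaving that stage for the plasma cell fate. It is known for constant signalling from the B-cell receptor and MYD88 to NF-kB, for the transcription factor IRF4, and for the cytokines IL-6 and IL-10, which act back on the cell through JAK kinases and STAT3.

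Total counts ran from 6960169 in WSU_DLCL2 to 13451527 in SUDHL6. Levels are given in CPM, the share of a library's counts taken by a gene, scaled by TMM factors. Where a gene had a count of 0, its level could still be as high as 0.473 CPM (OCILY8, the highest such limit, counting error only). TMM factors ran from 0.946 to 1.31 in the ABC lines and from 0.603 to 1.41 in the GCB lines (exact permutation p = 0.115, two-sided, 0.324 adjusted over 6 library measures). The B-cell markers CD79A and PAX5 were present in every line. RCK8 had 14.4 CPM of CD22, the lowest of the 21 lines. Markers of T and NK cells summed to between 299 and 914 CPM in the ABC lines and between 117 and 880 CPM in the GCB lines (exact permutation p = 0.106, adjusted 0.324).

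SUDHL2 and TMD8 were the most alike of the 210 pairs of lines, with a Spearman correlation of 0.934 over 2333 genes, against 0.897 for the next pair, SUDHL4 and SUDHL6. The pair still differed by more than 1 log2 unit in 463 of the 2333 genes (19.8%). Both lines are ABC, so the called genes and others that rest on them are given below also without them. ABC lines correlated with each other at a median of 0.818 (10 pairs), GCB lines at 0.795 (120 pairs), and lines of different class at 0.784 (80 pairs). The line nearest to RIVA was SUDHL6, and the line nearest to U2932 was FARAGE, both of the GCB class. Over the whole panel the classes thus overlapped, and the values describe these libraries without a test.

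Of the 2333 genes tested (at least 10 CPM in at least 4 lines), 18 passed a Benjamini-Hochberg adjusted p of 0.05 in edgeR's quasi-likelihood test, which is 0.772%. Among them 17 were higher in the ABC lines (0.729%) and MME alone was lower (0.0429%). At an unadjusted p under 0.05 there were 241 genes (10.3%), of which 93 were higher (3.99%) and 148 lower (6.34%). No gene kept all 5 ABC lines above all 16 GCB lines (0%) or all 5 below them (0%). The median log2 difference (ABC minus GCB) over all genes tested was -0.14, and it moved by 0.23 to 0.09 when counts were scaled by library size alone. List medians below are to be read against it. In bulk RNA, fewer cells with a transcript and less transcript per cell cannot be told apart.

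**Figure D1:**
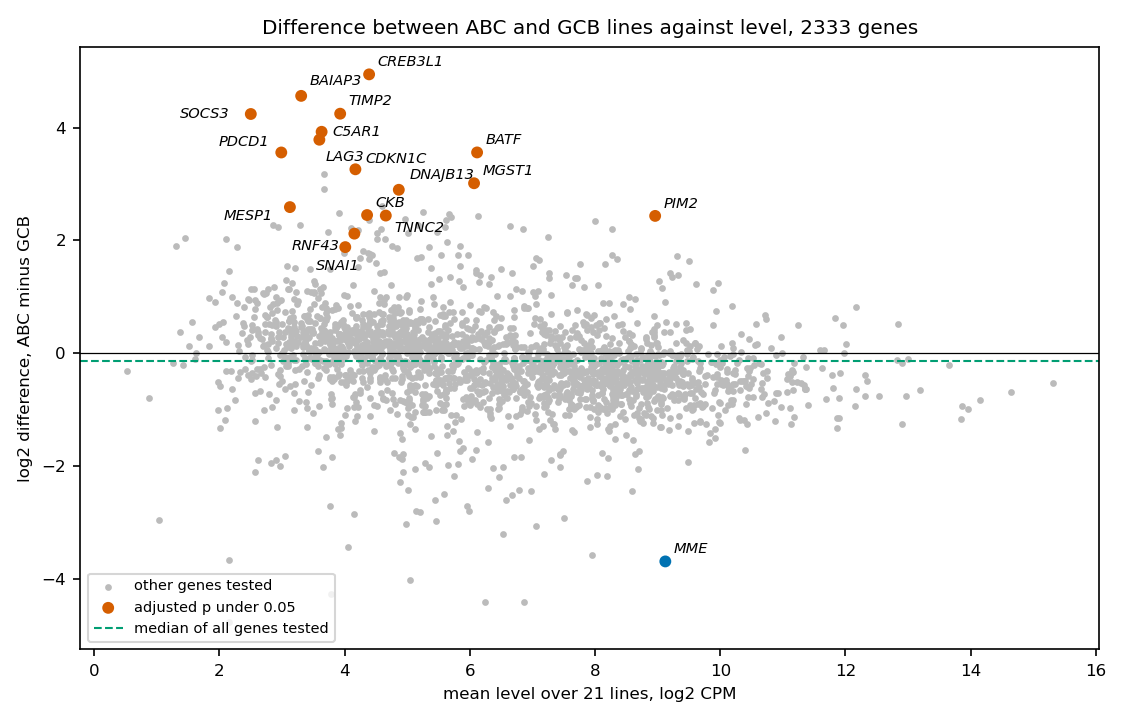
Log2 difference between ABC and GCB lines (vertical axis) against mean level over the 21 lines in log2 CPM (horizontal axis), 1 point per gene for 2333 genes, with the 18 genes past the adjusted threshold in colour. The 17 higher genes lie mostly at the low end of the level axis, PIM2 and MME at the high end, and the dashed line marks the median of all genes at -0.14.

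The called genes were mostly of low level. By quartile of mean level, 12 of the 18 lay in the lowest quartile, 4 in the next, 0 in the third and 2, PIM2 and MME, in the highest. The median difference over all genes also ran with level, from 0.19 in the lowest quartile to -0.41 in the highest. With the log2 TMM factor as a covariate, 6 genes were called, all of them among the 18: SOCS3, TIMP2, CDKN1C, LAG3, TNNC2 and BAIAP3. With SUDHL2 and TMD8 summed into 1 library 11 genes were called, and without both lines 10.

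The genes that define the 2 classes come first. On the ABC side the panel held PIM2 and IRF4 of 9 classifier genes, and on the GCB side MME, SERPINA9, MYBL1, ITPKB and ASB13 of 7. PIM2, a serine/threonine kinase that keeps lymphoid cells alive and is induced by cytokines and NF-kB, had 5404 CPM in SUDHL2, 2466 in TMD8, 1880 in HBL1, 1504 in RIVA and 688 in U2932. Among the GCB lines it ran from 80.8 CPM in KARPAS422 to 1307 in TOLEDO with a median of 373. Each ABC line lay above the GCB median, and 5 GCB lines lay above the lowest ABC line. PIM2 was higher by 2.44 ± 0.50 log2 units (SE, adjusted p = 0.0132, edgeR), but not without SUDHL2 (1.89, adjusted p = 0.137) or without SUDHL2 and TMD8 (1.62, adjusted p = 0.624).

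IRF4, the transcription factor that starts the plasma cell programme and on which ABC lines depend, was narrow in 1 class and wide in the other. It had 902 CPM in HBL1, 849 in TMD8, 781 in RIVA, 661 in U2932 and 522 in SUDHL2. The GCB lines ran from 1.09 CPM in KARPAS422 to 1743 in DOHH2 with a median of 136. Only DOHH2 and RCK8 (550 CPM) lay above the lowest ABC line. The log2 difference was 1.49 ± 1.06 (adjusted p = 0.626), with a 95% interval from -0.73 to 3.71, so the difference did not pass the test.

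MME, the surface peptidase CD10 that marks germinal centre B cells, was the 1 gene called lower in the ABC lines. It had 22.4 CPM in RIVA, 66.0 in HBL1, 94.3 in TMD8, 94.4 in SUDHL2 and 338 in U2932. In the GCB lines MME ran from 59.2 CPM in RCK8 to 5950 in OCILY1 with a median of 1124. No ABC line reached the GCB median, and 3 GCB lines, RCK8, FARAGE (158 CPM) and DOHH2 (326 CPM), lay under the highest ABC line. MME fell by 3.69 ± 0.86 on the log2 scale (adjusted p = 0.0362). It passed in 14 of the 21 fits that left out 1 line and lost the call without HBL1, RIVA, SUDHL2, TMD8, OCILY8, SUDHL4 or TOLEDO, at adjusted p from 0.0513 to 0.127 and with log2 differences from -3.65 to -3.50. Among 16 other settings it was called in 6, and not with upper-quartile factors, library size alone or limma-voom.

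The other 4 GCB classifier genes had lower fitted means in the ABC lines and did not pass. MYBL1, a transcription factor of dividing germinal centre cells, differed by -2.15 ± 1.08 log2 units (adjusted p = 0.5), with 6.89 CPM in HBL1 and 361 in U2932 at the ends of the ABC range. SERPINA9, a germinal centre serpin, differed by -2.04 ± 1.33 (adjusted p = 0.58), and here too U2932 was the highest ABC line, at 434 CPM against 5.78 in RIVA. ITPKB, an inositol kinase that dampens receptor signalling, differed by -1.29 ± 0.66, and ASB13, a ubiquitin ligase adaptor, by -1.41 ± 1.08. Across the 5 genes U2932 was the ABC line with the highest level each time.

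Among 13 further germinal centre genes no member passed, and the median difference was -1.0 against -0.14 over all genes. At an unadjusted p under 0.05, 1 was higher and 1 lower, where 3.99% and 6.34% of all genes were. As a difference of mean log2 CPM the median was -0.75 against 0.09, and 6 of the 13 were higher by that measure. BCL6, the repressor that holds cells in the germinal centre, had 49.6 CPM in U2932, 25.5 in TMD8, 21.1 in SUDHL2, 18.1 in HBL1 and 6.44 in RIVA. The GCB lines ran from 1.76 CPM in OCILY19 to 463 in SUDHL16 with a median of 36.1, so 15 of 16 lay above the lowest ABC line. The difference was -1.79 ± 0.98 log2 units (adjusted p = 0.51), with an interval from -3.83 to 0.26. LMO2, another germinal centre factor, differed by 0.24 ± 0.92, and EZH2, the methyltransferase of H3K27, by 0.13 ± 0.46.

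**Figure D2:**
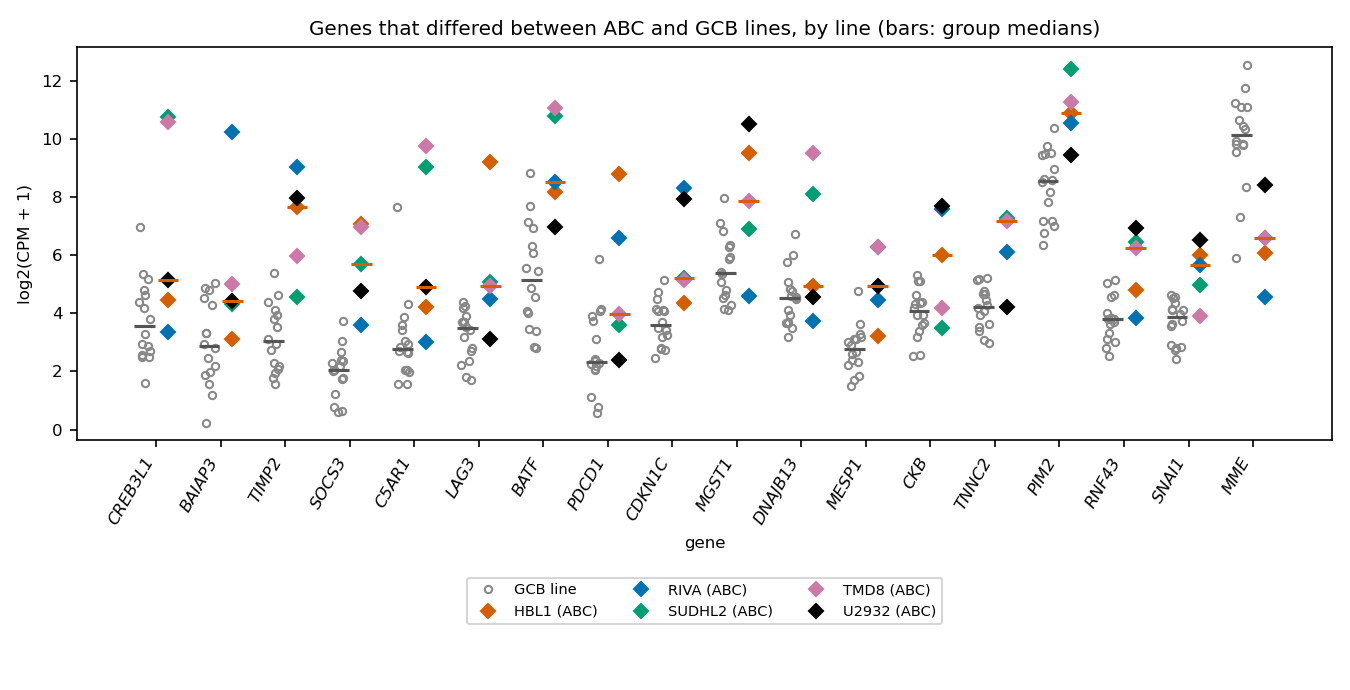
Level of the 18 called genes in each line as log2(CPM + 1), GCB lines as open circles, ABC lines as coloured diamonds, and short bars for the group medians. The ABC diamonds of SOCS3 spread from 11.0 to 133 CPM with 1 GCB line above the lowest of them, whereas LAG3, BAIAP3 and CREB3L1 were set by 1 or 2 high lines.

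The cytokine pathway that ends in STAT3 held the gene with the smallest p. SOCS3, which STAT3 induces and which shuts off the cytokine receptors and JAK kinases in return, had 133 CPM in HBL1, 124 in TMD8, 50.1 in SUDHL2, 26.4 in U2932 and 11.0 in RIVA. Across the GCB lines SOCS3 ran from 0.523 CPM in SUDHL16 to 12.4 in RCK8 with a median of 3.13. RCK8 was the only GCB line above the lowest ABC line. SOCS3 was higher by 4.24 ± 0.56 log2 units (adjusted p = 0.000216), a fitted fold of 18.9, in 5 of 5 ABC lines against the GCB median. It was called in all 21 fits that left out 1 line, with the largest adjusted p at 0.000829, and without SUDHL2 and TMD8 (3.96, adjusted p = 0.00161). Its position in GRCh38 is chromosome 17, 78356778 to 78360077, minus strand.

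Upstream of SOCS3, all 5 ABC lines lay above the GCB median for IL10 and IL10RA, and neither gene passed with TMM scaling in edgeR. IL10, the cytokine, had 87.8 CPM in SUDHL2, 64.8 in TMD8, 60.1 in U2932, 37.9 in HBL1 and 2.98 in RIVA against a GCB median of 0.899. Because SUDHL16 reached 197 CPM, FARAGE 60.1 and OCILY1 21.6, its fitted difference was 1.47 ± 1.24 (adjusted p = 0.72). IL10RA, the ligand-binding chain of the IL-10 receptor, had 2324 CPM in SUDHL2, 2070 in TMD8, 1464 in HBL1, 867 in RIVA and 491 in U2932 against a GCB range of 9.95 to 1337 with a median of 164. All 5 lay above the GCB median, and the difference was 2.34 ± 0.65 (adjusted p = 0.0986). IL10RA passed with library size alone (adjusted p = 0.0323) and with limma-voom (0.0392), and was at 1.72 without SUDHL2 and TMD8 (0.858).

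STAT3 itself was high in the most alike pair. It had 2125 CPM in SUDHL2, 1875 in TMD8, 551 in HBL1, 259 in U2932 and 162 in RIVA, against a GCB range of 114 to 1007 with a median of 245, highest in RCK8. The difference was 1.68 ± 0.46 log2 units (adjusted p = 0.0986) and 0.06 without the pair. It passed where FARAGE and RCK8 were left out of the GCB group (1.98, adjusted p = 0.0149). That setting takes out its highest GCB line, RCK8, so the pass gives no separate support. IL6, the other cytokine of the loop, differed by -0.17 ± 0.67, JAK1 by 0.50 ± 0.39 and JAK2 by 0.28 ± 0.45.

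Of 24 JAK-STAT genes tested, 2 were called higher, SOCS3 and PIM2, and 0 lower, where 0.729% of all genes were called higher. At an unadjusted p under 0.05 there were 5 higher, where 3.99% of all genes were, and 0 lower, the other 3 being IL10RA, STAT3 and PIM1. PIM1, a kinase related to PIM2 and a STAT target, had 3153 CPM in HBL1, 1959 in RIVA, 683 in SUDHL2, 411 in TMD8 and 322 in U2932. Its GCB range of 3.18 to 1451 CPM took in all but the highest 2 of these (2.05 ± 0.94, adjusted p = 0.43). The median of the list was -0.01, near that of all genes, and 0.45 as a difference of mean log2 CPM against 0.09 over all genes. STAT2 differed by -1.06 ± 0.54 and SOCS1 by -0.48 ± 0.77.

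**Figure D3:**
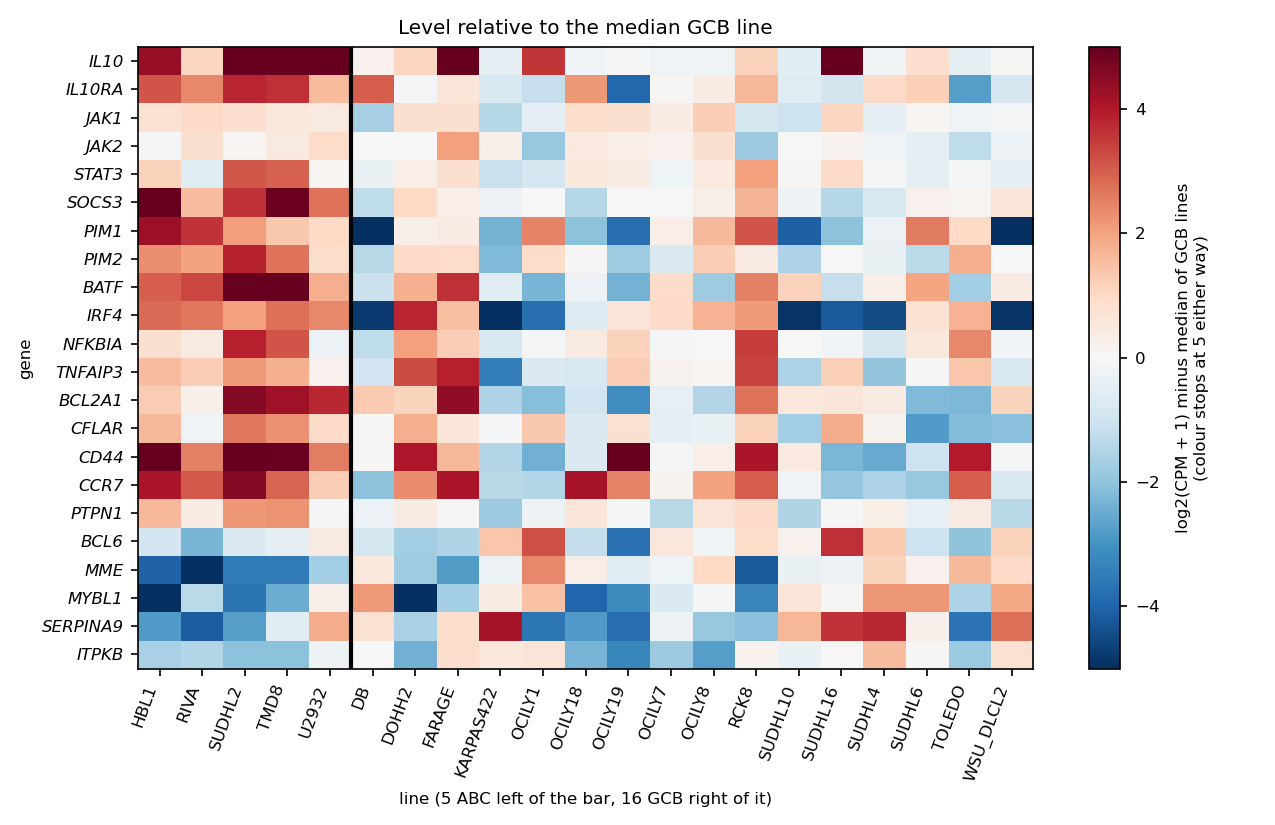
Level of 22 named genes in each line relative to the median GCB line, as log2(CPM + 1), with the 5 ABC lines left of the bar and colour stopping at 5 either way. SOCS3 and IL10RA are red in all 5 ABC columns, while RCK8 and FARAGE, right of the bar, share red in BATF, TNFAIP3 and BCL2A1 and blue in MME.

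BATF, an AP-1 factor that binds DNA together with IRF4, was the transcription factor called among the activated B-cell genes. It had 2124 CPM in TMD8, 1758 in SUDHL2, 365 in RIVA, 283 in HBL1 and 124 in U2932. The GCB lines ran from 5.97 CPM in OCILY19 to 453 in FARAGE with a median of 35.5, and 3 of them, FARAGE, RCK8 (203 CPM) and SUDHL6 (139 CPM), lay above the lowest ABC line. BATF was higher by 3.56 ± 0.77 log2 units (adjusted p = 0.019). The call was lost without SUDHL2 (3.20, adjusted p = 0.0761), without TMD8 (3.00, adjusted p = 0.127) and without both (1.71, adjusted p = 0.885).

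BATF was the 1 member called of 15 further genes of activated B cells. At an unadjusted p under 0.05 there were 7 of 15, all higher, where 3.99% of all genes were. The median of the list was 1.59 against -0.14. PTPN1, a phosphatase of JAK and STAT proteins, had 1242 CPM in TMD8, 1190 in SUDHL2, 836 in HBL1, 343 in RIVA and 250 in U2932 against a GCB median of 262 (1.59 ± 0.40, adjusted p = 0.0605). PTPN1 passed with upper-quartile factors (adjusted p = 0.0272), library size alone (0.0108), DESeq2's Wald test (0.0484), all 36 lines in the fit (0.0367) and without FARAGE and RCK8 (0.0415), and was at 0.89 without SUDHL2 and TMD8 (0.885). CCND2, a D-type cyclin, stood at 1934 CPM in HBL1 and 404 in TMD8, while SUDHL2, U2932 and RIVA, at 39.8, 42.7 and 10.3 CPM, were no higher than many GCB lines (2.46 ± 0.89, adjusted p = 0.32). CD44, an adhesion receptor, had 642 to 6511 CPM in the ABC lines against a GCB median of 110 and a GCB maximum of 8105 in OCILY19 (1.75 ± 1.07, adjusted p = 0.55). FOXP1 was the only member with a negative difference (-0.73 ± 0.84), where 1361 of all 2333 genes had one.

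No member of either NF-kB list passed the test. PIM2, described above as induced by NF-kB, is in neither list. Of 18 subunits and regulators and of 27 target genes, 0 were called in either direction by edgeR, and DESeq2's Wald test called none of them. At an unadjusted p under 0.05, 1 and 2 were higher, where 3.99% of all genes were. The medians were 0.01 in both lists against -0.14 over all genes, and 0.49 and 0.47 as differences of mean log2 CPM against 0.09. Among the subunits NFKB1 was at 0.10 ± 0.35 (interval -0.64 to 0.84), RELA at -0.20 ± 0.32, REL at -0.35 ± 0.57 and RELB at 0.15 ± 0.50. BCL3, an IkB-like coactivator, had the smallest p of the regulators (1.33 ± 0.59, adjusted p = 0.42).

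The feedback inhibitors NFKBIA and TNFAIP3 varied widely within both classes. NFKBIA, which encodes IkB-alpha and is induced by NF-kB, had 1789 CPM in SUDHL2 and 1079 in TMD8 but 214 in HBL1, 165 in RIVA and 97.4 in U2932. NFKBIA ran from 49.5 CPM in DB to 1349 in RCK8 over the GCB lines with a median of 121 (1.33 ± 0.66, adjusted p = 0.5). TNFAIP3, the deubiquitinase A20, was highest in GCB lines, at 1564 CPM in FARAGE, 1090 in RCK8 and 1001 in DOHH2, against 120 to 456 CPM in the ABC lines (-0.08 ± 0.86). The GCB median of TNFAIP3 was 104 CPM, so every ABC line lay above it. With DOHH2, FARAGE, OCILY18, RCK8 and TOLEDO left out of the GCB group, NFKBIA passed (2.47, adjusted p = 0.0234), as did BCL2A1, CCR7, STAT3 and PTPN1. The lines left out include the highest GCB line for NFKBIA (RCK8), BCL2A1 (FARAGE, 4414 CPM) and CCR7 (OCILY18, 777 CPM). These passes therefore give no separate support. SLAMF7 also passed in that setting (4.13, adjusted p = 0.0173), against -0.70 with all GCB lines.

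BCL2A1, a BCL2-like survival gene that NF-kB induces, had 4939 CPM in SUDHL2, 3921 in TMD8, 2834 in U2932, 494 in HBL1 and 243 in RIVA. Levels in the GCB lines went from 23.1 CPM in OCILY19 to 4414 in FARAGE with a median of 214, and the difference was 2.21 ± 0.87 (adjusted p = 0.34). CFLAR, the caspase-8 inhibitor c-FLIP and also an NF-kB target, had 3247 CPM in SUDHL2, 2505 in TMD8, 1591 in HBL1, 992 in U2932 and 457 in RIVA against a GCB median of 517 (1.36 ± 0.57, adjusted p = 0.39). Both were highest in SUDHL2 and TMD8 among ABC lines, and without that pair BCL2A1 was at 1.15 and CFLAR at 0.56. BCL2A1 passed without FARAGE and RCK8 (3.61, adjusted p = 0.00354). Those were its highest GCB lines (RCK8 at 1352 CPM), so that pass gives no separate support.

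Promoter sequence is shown for NFKBIA, CFLAR and BCL2A1, described above, and for PDCD1, the 1 called gene with a match, because their 250 bases before the start hold a motif of NF-kB, STAT or ETS-IRF factors. The sequences are from RefSeq (GRCh38.p14), read 5′ to 3′ on the gene's own strand, each from the first start listed for the gene. Capitals mark the kappa-B motif of NF-kB (in PDCD1, NFKBIA and CFLAR), the ETS-IRF composite GGAANNGAAA (in PDCD1, the last 10 bases, on the other strand) and the STAT motif TTCNNNGAA (in BCL2A1). PDCD1 lies at chr2:241858895-241859144 on the minus strand, NFKBIA at chr14:35404750-35404999 on the minus strand, CFLAR at chr2:201118466-201118715 on the plus strand and BCL2A1 at chr15:79971197-79971446 on the minus strand.
PDCD1: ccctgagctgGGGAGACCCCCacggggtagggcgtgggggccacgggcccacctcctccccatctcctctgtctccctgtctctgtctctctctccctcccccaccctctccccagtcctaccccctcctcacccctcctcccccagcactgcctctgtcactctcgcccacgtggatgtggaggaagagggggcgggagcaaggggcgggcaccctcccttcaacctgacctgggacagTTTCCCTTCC
NFKBIA: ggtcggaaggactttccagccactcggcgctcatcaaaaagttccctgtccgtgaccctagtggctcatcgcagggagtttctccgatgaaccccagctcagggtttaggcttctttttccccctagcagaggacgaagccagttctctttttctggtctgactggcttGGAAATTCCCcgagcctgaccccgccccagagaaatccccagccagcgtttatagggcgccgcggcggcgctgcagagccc
CFLAR: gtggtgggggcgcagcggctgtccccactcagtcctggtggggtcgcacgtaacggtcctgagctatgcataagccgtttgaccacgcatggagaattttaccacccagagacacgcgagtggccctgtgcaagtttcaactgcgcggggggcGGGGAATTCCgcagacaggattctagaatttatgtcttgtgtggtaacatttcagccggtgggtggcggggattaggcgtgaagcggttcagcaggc
BCL2A1: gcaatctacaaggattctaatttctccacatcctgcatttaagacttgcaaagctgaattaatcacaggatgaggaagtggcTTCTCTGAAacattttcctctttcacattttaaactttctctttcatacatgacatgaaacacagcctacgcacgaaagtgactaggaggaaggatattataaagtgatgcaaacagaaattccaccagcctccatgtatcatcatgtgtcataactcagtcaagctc

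Both strands were searched, and overlapping kappa-B matches in PDCD1 were joined. Of 27305 RefSeq promoters, 5.05% held a kappa-B match, 2.44% an ETS-IRF composite and 6.78% a STAT motif, and of the 1782 that matched a tested gene 7.07%, 2.19% and 6.06%. Among the 48 promoters searched for named genes, kappa-B matches also lay in BMF, PIK3R1, RRM2 and TAP1, an ETS-IRF composite in TAP2 and a STAT motif in BCL6. Of the 18 called genes 12 had a sequence, and only PDCD1 held a match, to kappa-B and to the ETS-IRF composite. In this set SOCS3, PIM2, BATF and MME held none of the 3 in this window, which says only that these letters are not there. For SOCS3 the window was chr17:78360926-78361175, which lies upstream of the GENCODE position given above and does not adjoin it. The bases next to that GENCODE start of SOCS3 were therefore not searched. The matches describe sequence and show no binding.

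Genes of the B-cell receptor and of MYD88 signalling, where the mutations of ABC lymphomas act, held no call in edgeR. Of 11 genes of receptor signalling 0 were called and 0 passed an unadjusted p of 0.05 in edgeR, and DESeq2's Wald test called none of them. BTK, a kinase of the receptor, differed by -0.30 ± 0.56 with an interval from -1.46 to 0.87, CD79A by 0.91 ± 0.47 and MALT1, the protease, by 0.90 ± 0.48 (adjusted p = 0.51). The list median was -0.30, and its sign turned with library size scaling (0.11).

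Of 16 Toll-like receptor genes edgeR called 0. MYD88, the adaptor, had 99.6 to 232 CPM in the ABC lines and a median of 181 in both classes (-0.24 ± 0.37). IRAK3, which inhibits this pathway, was the member with the smallest p: U2932 had 249 CPM, SUDHL2 193, TMD8 159, RIVA 43.6 and HBL1 43.1, against a GCB range of 9.14 to 113 with a median of 27.4. TLR6 was lower at an unadjusted p under 0.05 (-1.25 ± 0.60). IRAK3 differed by 1.89 ± 0.49 log2 units (adjusted p = 0.0677) and was called under the DESeq2 size factors and by DESeq2's Wald test (adjusted p = 0.0107). All 5 ABC lines lay above the GCB median.

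**Figure D4:**
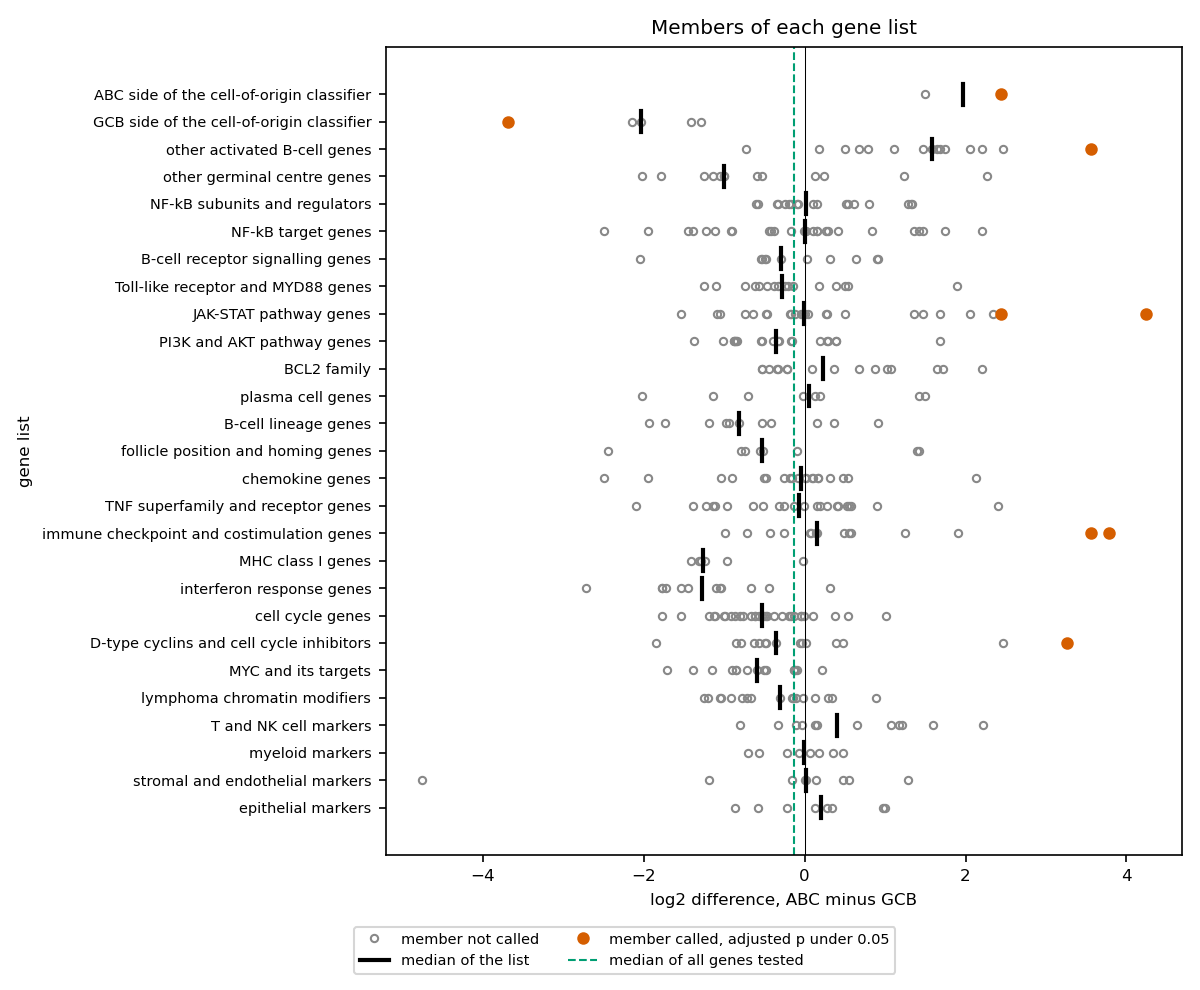
Log2 difference (ABC minus GCB) of each tested member of 27 gene lists, filled where the member was called, with a bar at the list's median and a dashed line at the median of all genes, -0.14. The activated B-cell list lies right of the dashed line at 1.59, and the interferon, MHC class I and germinal centre lists lie left of it at -1.27, -1.26 and -1.0.

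CDKN1C, which encodes the cyclin-dependent kinase inhibitor p57, was the only cell cycle gene called. RIVA had 317 CPM, U2932 242, SUDHL2 36.1, TMD8 34.0 and HBL1 19.5, and the GCB lines ran from 4.52 CPM in SUDHL4 to 33.9 in OCILY7 with a median of 11.1. The 2 high lines stood well above every GCB line, and 3 GCB lines lay above HBL1. CDKN1C was higher by 3.26 ± 0.51 log2 units (adjusted p = 0.00115) and was called in all 21 fits that left out 1 line. Its position in GRCh38 is chromosome 11, 2883213 to 2885773, minus strand. CDK6, a kinase that D-type cyclins activate, was at 61.1 to 254 CPM in the ABC lines against 134 to 1301 in the GCB lines (-1.85 ± 0.54, adjusted p = 0.127) and passed with DESeq2's Wald test (-1.97, adjusted p = 0.00747).

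Most proliferation genes had a negative difference, and none passed. Of 31 cell cycle genes 27 had a negative difference, as had 1361 of all 2333 genes, and edgeR called 0. At an unadjusted p under 0.05, 5 were lower, where 6.34% of all genes were. The median was -0.53, against -0.14 over all genes. The 5 were CDC25A, BUB1, MAD2L1, TTK and RRM2. TTK, the kinase of the spindle checkpoint, had 123 CPM in RIVA, 90.9 in TMD8, 79.8 in U2932, 66.0 in HBL1 and 39.2 in SUDHL2 against a GCB median of 217 (-1.78 ± 0.51, adjusted p = 0.12), and it passed with DESeq2's Wald test (-1.86, adjusted p = 0.0121). MKI67, the Ki-67 antigen, differed by -1.01 ± 0.55 (adjusted p = 0.51).

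MYC, the growth regulator, had 1311 CPM in HBL1, 1014 in RIVA, 664 in TMD8, 381 in SUDHL2 and 187 in U2932 against a GCB range of 329 to 6985 with a median of 1681. No ABC line reached that median, and the difference was -1.71 ± 0.60 (adjusted p = 0.31). Of 15 genes in the list of MYC and its targets 14 had a negative difference, as had 1361 of all 2333 genes. At an unadjusted p under 0.05, 2 of them (MYC and NCL) were lower, where 6.34% of all genes were. The median was -0.59. Among 17 chromatin modifiers 5 were lower at an unadjusted p under 0.05 (HDAC2, SMARCA4, ARID1B, HDAC1 and EP300) against the same 6.34%, edgeR called 0, and the median was -0.31, which turned to 0.04 with library size scaling. These counts stand beside the fall of the median difference with level described above, whose part in them was not tested.

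Immune checkpoint genes held 2 calls of 15, both inhibitory receptors of T cells, where 0.729% of all genes were called higher. LAG3 had 589 CPM in HBL1, 32.6 in SUDHL2, 29.7 in TMD8, 21.4 in RIVA and 7.63 in U2932, and the GCB lines ran from 2.25 CPM in FARAGE to 20.0 in SUDHL16 with a median of 10.2. It was higher by 3.79 ± 0.63 log2 units (adjusted p = 0.00217), and by 1.21 without HBL1 (adjusted p = 0.576). PDCD1, which encodes PD-1, had 440 CPM in HBL1, 94.7 in RIVA, 14.8 in TMD8, 11.0 in SUDHL2 and 4.23 in U2932 against a GCB range of 0.473 to 57.9 with a median of 3.98. It was higher by 3.56 ± 0.83 (adjusted p = 0.0362), and by 1.70 without HBL1 (adjusted p = 0.635). It was called in 11 of the 21 fits that left out 1 line.

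HBL1 also had the highest sum of T and NK cell markers of the ABC lines, 914 CPM. Within it, the cytotoxic gene PRF1, at 349 CPM, was the highest of the ABC lines. GZMB, also cytotoxic, had 239 CPM in HBL1, under the ABC maximum of 284. The T-cell receptor chain CD3D had 36.4 CPM in HBL1 and was at 118 in U2932. Of the 12 such markers tested 0 were called, where 0.772% of all genes were. At an unadjusted p under 0.05, 2 (GZMB and PRF1) were higher, where 3.99% of all genes were. The median was 0.40, against -0.14 over all genes. KLRB1 was at 0 in at least 1 line of each class. The part of these genes in the LAG3 and PDCD1 values was not tested. CD274, which encodes the ligand PD-L1, differed by -0.72 ± 1.03, and PDCD1LG2, the other ligand of PD-1, by 1.91 ± 0.96 (adjusted p = 0.5).

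Of the other called genes, TIMP2, TNNC2 and CREB3L1 were called in every fit that left out 1 line. TIMP2, a secreted inhibitor of matrix metalloproteinases, had 520 CPM in RIVA, 248 in U2932, 199 in HBL1, 61.2 in TMD8 and 22.4 in SUDHL2. The GCB lines ran from 1.93 CPM in FARAGE to 41.1 in TOLEDO with a median of 7.18, and only TOLEDO and RCK8 (23.5 CPM) lay above the lowest ABC line. It was higher by 4.25 ± 0.61 log2 units (adjusted p = 0.000373) and by 4.86 without SUDHL2 and TMD8 (adjusted p = 0.000181). Its position in GRCh38 is chromosome 17, 78852977 to 78925387, minus strand.

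TNNC2, a calcium-binding troponin of fast muscle, had 154 CPM in SUDHL2, 146 in HBL1, 144 in TMD8, 68.1 in RIVA and 17.6 in U2932. The GCB lines ran from 6.88 to 36.1 CPM with a median of 17.8, so U2932 lay among them and the other 4 above all of them. It was higher by 2.44 ± 0.43 log2 units (adjusted p = 0.00281), and by 1.98 without SUDHL2 and TMD8 (adjusted p = 0.145). CREB3L1, a membrane-bound transcription factor of the secretory pathway, rested on that pair. It had 1709 CPM in SUDHL2 and 1533 in TMD8 against 34.5 in U2932, 20.9 in HBL1 and 9.23 in RIVA, and the GCB lines ran from 2.05 to 125 CPM with a median of 10.9. The difference of 4.94 ± 0.85 (adjusted p = 0.00251) was 0.004 without the pair (adjusted p = 0.997).

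The remaining 8 calls were named after their values were seen, and each lost its call without at least 1 ABC line. BAIAP3, an exocytosis gene, had 1215 CPM in RIVA and 7.65 to 31.1 in the other ABC lines, and its difference of 4.56 ± 0.87 (adjusted p = 0.00789) was 0.78 without RIVA (adjusted p = 0.648). MGST1, a microsomal glutathione transferase, stood at 1464 CPM in U2932 and 722 in HBL1 (3.01 ± 0.62, adjusted p = 0.0132; 2.11 without U2932, adjusted p = 0.223). CKB, brain-type creatine kinase, was high in U2932 (207 CPM) and RIVA (189 CPM) and lost the call without either (2.45 ± 0.53, adjusted p = 0.019). C5AR1, the receptor of complement C5a, and DNAJB13, a sperm-flagellum chaperone, were high in SUDHL2 and TMD8, at 524 and 858 CPM and at 275 and 725 CPM.

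Without that pair the C5AR1 difference was -0.09 in place of 3.93 ± 0.95 (adjusted p = 0.047 with all lines). C5AR1 was called in 4 of the 21 fits that left out 1 line and in 5 of 16 other settings, and not with robust edgeR. The difference of DNAJB13 without the pair was -0.41 in place of 2.90 ± 0.64 (adjusted p = 0.0238). MESP1, a mesoderm transcription factor, was called with all lines (2.59 ± 0.50, adjusted p = 0.0084). It was at 2.27 without SUDHL2 (adjusted p = 0.0598), 2.26 without TMD8 (0.0585) and 1.47 without both (0.711). RNF43, a ubiquitin ligase that lowers WNT receptors, lost its call (2.12 ± 0.46, adjusted p = 0.019) without SUDHL2, TMD8 or U2932, at log2 differences of 2.00, 2.06 and 1.76. SNAI1, the repressor Snail, lost its own (1.88 ± 0.43, adjusted p = 0.0311) without HBL1, RIVA or U2932, at 1.78, 1.84 and 1.54.

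**Figure D5:**
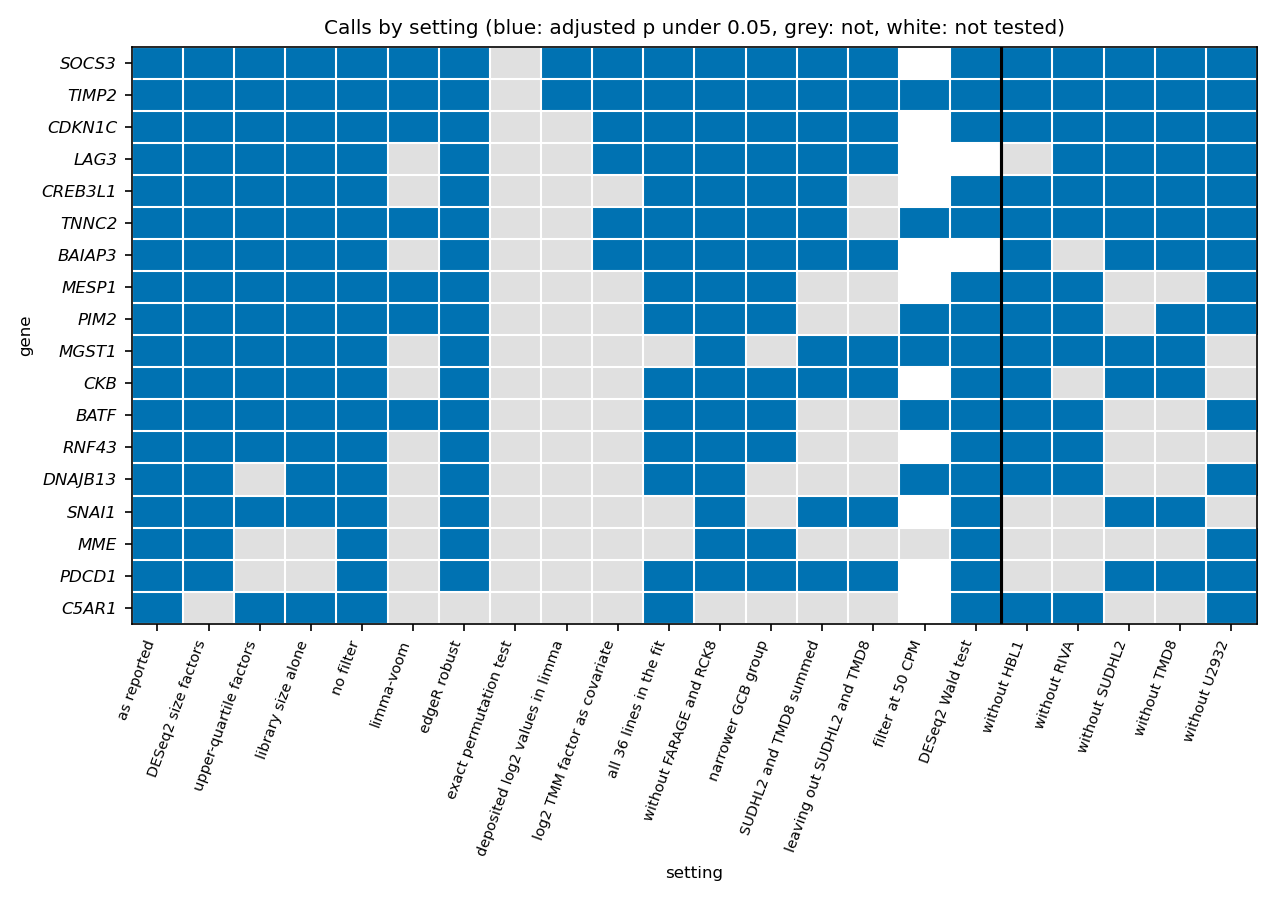
Calls of the 18 genes (rows) under each setting and without each ABC line (columns), blue where the adjusted p was under 0.05, grey where it was not and white where the gene was not tested. SOCS3, TIMP2 and CDKN1C are blue without each ABC line and with the TMM covariate. No gene is blue under the exact permutation test, whose smallest adjusted p was 0.115.

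Antigen presentation and interferon genes had negative medians without a call. Of 6 MHC class I genes all had a negative difference, as had 1361 of all 2333 genes, and edgeR called 0. TAP1 and TAP2, the peptide transporter, were lower at an unadjusted p under 0.05, where 6.34% of all genes were. Their differences were -1.28 ± 0.52 and -1.24 ± 0.54 (adjusted p = 0.34 and 0.41). HLA-B differed by -0.96 ± 0.86, and class I genes are alike enough in sequence to share reads. Of 12 interferon response genes 11 had a negative difference, beside the same 1361 of 2333. The median was -1.27, edgeR called 0 and 0 passed an unadjusted p of 0.05. As differences of mean log2 CPM the medians were -0.73 for the class I list and -0.39 for the interferon list, against 0.09 over all genes.

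Survival and homing genes gave single values. Of 16 BCL2 family genes edgeR called 0, and 4 were higher at an unadjusted p under 0.05, where 3.99% of all genes were: BCL2A1, BMF, PMAIP1 and BID, of which the last 3 promote death. BMF had 4739 CPM in RIVA, 3025 in SUDHL2, 2002 in HBL1, 1836 in TMD8 and 736 in U2932 against a GCB median of 631 (1.64 ± 0.57, adjusted p = 0.31). BCL2 differed by 0.09 ± 0.87, with an interval from -1.73 to 1.91. ITGA4, the integrin alpha-4 chain, had 45.6 CPM in RIVA and 228 in TMD8 at the ends of the ABC range against a GCB median of 551 (-2.44 ± 0.73, adjusted p = 0.146), and it passed with DESeq2's Wald test (-2.55, adjusted p = 0.00477). CCR7, a receptor for lymph node homing, had 102 to 1027 CPM in the ABC lines against a GCB median of 43.6 (1.42 ± 0.87).

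Plasma cell, lineage, chemokine, TNF and PI3K genes held no call. PRDM1, the BLIMP1 repressor that completes plasma cell differentiation, had 539 CPM in TMD8, 408 in SUDHL2, 116 in U2932, 105 in RIVA and 40.0 in HBL1 against a GCB range of 11.5 to 571 (1.42 ± 0.69, adjusted p = 0.48), and -0.05 without SUDHL2 and TMD8. Of 11 B-cell lineage genes TCF3, the E2A factor, was lower at an unadjusted p under 0.05 (-1.93 ± 0.76, adjusted p = 0.34), where 6.34% of all genes were. The lineage list's median of -0.82 was 0.32 as a difference of mean log2 CPM. CXCL16, a transmembrane chemokine, had 443 CPM in HBL1 and 35.1 in TMD8 at the ends of the ABC range (2.13 ± 0.62, adjusted p = 0.128) and passed with DESeq2's Wald test (adjusted p = 0.0294). TNFRSF1B, TNF receptor 2, was at 1492 CPM in HBL1, 961 in SUDHL2 and 907 in TMD8 but 105 in U2932 and 26.2 in RIVA (2.41 ± 1.04, adjusted p = 0.41). FOXO3 and PIK3R1, which act downstream and within PI3K signalling, differed by -0.86 ± 0.34 and -0.88 ± 0.37. Both were lower at an unadjusted p under 0.05, where 6.34% of all genes were. Their list of 20 had a median of -0.36, against -0.14 over all genes. Myeloid, stromal and epithelial markers had medians of -0.004, 0.02 and 0.20, with no member at an unadjusted p under 0.05.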

How the data were processed

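RNA of 36 lymphoma lines was measured by targeted RNA-Seq, 1 library per line, and 21 lines entered here (5 ABC, 16 GCB). The other 15 lines were not compared. The authors deposited whole-number counts of 2559 targets and a table of log2 values. The submitters' processing notes name hg38. No source used here gives the aligner, the counting method or whether strand was used. The deposited log2 values matched log2(count/factor + 1), with 1 factor for each library, within 0.0053. They were used as an alternative. Targets named ER and a number (10) were treated as control probes and left out. They held at most 0.00215% of a library.

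Counts were scaled by TMM and tested with edgeR 4.0.16 (glmQLFit, glmQLFTest, R 4.3.3) in genes reaching 10 CPM in 4 or more lines, adjusted by Benjamini-Hochberg over 2333 genes and called under 0.05. The SE is the log2 difference divided by the square root of F, and intervals use 19 degrees of freedom at 95%. A fitted difference compares mean levels, so a single high line can set it. The difference of mean log2 CPM (prior count 2) is given beside it for the lists where signs differ. Library measures were compared by exact permutation over the 20349 ways to choose 5 of 21 lines. The code was tested on simulated data. Coordinates are from GENCODE release 29, which matched 2501 of 2549 names, and promoters from RefSeq, which matched 1782 of the genes tested.

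Genes were named by a rule: classifier members, the 12 largest differences each way among genes called in every fit that left out 1 line (5 genes qualified, all higher), genes without overlap between classes, and up to 4 members of each list by adjusted p with others of known role. The lines, lists and rule were chosen with earlier results of these data known. Alternatives were DESeq2 (1.42.0) size factors and Wald test, upper-quartile factors, library size, other filters, limma-voom (limma 3.58.1), robust edgeR, an exact permutation test, the deposited log2 values, the TMM factor as covariate, all 36 lines, narrower GCB groups and fits leaving out each line. Summing or leaving out SUDHL2 and TMD8 was chosen after seeing the data. Some genes of the panel are not reported here by name, but they stay in the tests and list counts.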

Additional observations from a re-analysis of the deposited data

Results flagged for a closer look

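Of the named genes, 3 had an ABC line far from the other 4, judged by its gap to the nearest ABC line as a share of the range over the 5 lines on the log2 scale (limit 0.71). BAIAP3 was highest in RIVA, at 1215 CPM against 31.1 in the next line, a share of 0.725. HDAC1, a histone deacetylase, was highest in RIVA, at 1706 against 1049 CPM, a share of 0.845. TAP2, a chain of the peptide transporter, was lowest in HBL1, at 53.1 against 177 CPM, a share of 0.863. The check covered 61 genes: the called genes, the classifier members and the named list members at an unadjusted p under 0.05. Chance alone marks about 1 in 20, so 3 of 61 is near what it gives.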

How the results depend on the processing

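The 18 calls became 6 with a filter at 50 CPM, where fewer genes were tested, 49 with DESeq2's Wald test, 2 with the deposited log2 values in limma, 6 with the TMM covariate, 11 with SUDHL2 and TMD8 summed and 10 without both. The exact permutation test called 0, with 232 genes at an unadjusted p under 0.05 and a smallest adjusted p of 0.115. Its smallest possible p is 4.91e-05, which for a single gene is 0.115 after adjustment over 2333 genes. Several genes at that p could together pass, so 0 calls was not fixed in advance. Over the 18 genes the unadjusted permutation p ran from 9.83e-05 in SOCS3 (adjusted 0.115) to 0.0331 in DNAJB13 (adjusted 0.447). It was also above 0.01 for CREB3L1 (0.0113), PDCD1 (0.015) and BAIAP3 (0.0179). Leaving out 1 line gave 11 to 23 calls, 11 without SUDHL2, 12 without TMD8 and 23 without SUDHL10. The cause of these moves was not tested. The other settings gave 13 to 27. The share of calls higher in ABC was 94.4%, and 57.1% with DESeq2's Wald test. It was 100% with upper-quartile factors, library size alone, the filter at 50 CPM, limma-voom, the deposited log2 values, the TMM covariate and both treatments of SUDHL2 and TMD8, and 93.3% to 100% leaving out 1 line. Without SUDHL2 and TMD8 the log2 difference turned for C5AR1 (-0.087), DNAJB13 (-0.41) and PRDM1 (-0.051). Leaving out 1 line moved PRF1 between -0.41, without HBL1, and 1.88, without RIVA. No sign turned with scaling. These sign checks covered only 61 genes: the called genes, the classifier members and the named list members at an unadjusted p under 0.05. For the other genes named above, the sign under other scalings was not checked. List medians of NF-kB, JAK-STAT, PI3K, Toll-like receptor, B-cell receptor, chemokine, TNF, D-type cyclin, chromatin and myeloid genes changed sign with scaling. No paired analysis was made, because the labels give nothing that pairs an ABC line with a GCB line. With 5 ABC lines and a median SE of 0.57 log2 units, small differences were not detectable.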

Other observations

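Some genes outside the lists came close to the threshold, and these were chosen after their values were seen. ERCC3, a helicase of the repair and transcription complex TFIIH, had 160 CPM in RIVA, 137 in HBL1, 103 in TMD8, 73.3 in U2932 and 61.0 in SUDHL2 against a GCB range of 119 to 354 with a median of 212. Only 1 GCB line lay under the highest ABC line, and the difference was -1.09 ± 0.31 log2 units (edgeR adjusted p = 0.123; DESeq2's Wald test 0.0204). GNG7, a G-protein gamma subunit, had 5.60 to 34.8 CPM in the ABC lines against a GCB median of 176 and maximum of 2651 (-4.41 ± 1.21, adjusted p = 0.0986; DESeq2's Wald test 2.68e-05). EPS8, an actin regulator, was above the GCB median of 23.3 CPM in all 5 ABC lines, from 29.8 in HBL1 to 124 in U2932 (2.03 ± 0.51, adjusted p = 0.0605; DESeq2's Wald test 0.0145, limma-voom 0.0336). WNT9A, a WNT ligand, had 40.5 to 313 CPM in the ABC lines, where 2 GCB lines exceeded the lowest of them (2.91 ± 0.76, adjusted p = 0.0681; DESeq2's Wald test 0.0219, limma-voom 0.0302, narrower GCB group 0.0075).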
